A study of Mus musculus with 4 samples.

Results

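Ribosome biogenesis genes encode the machinery that builds ribosomes: RNA polymerase I, the small nucleolar ribonucleoproteins (snoRNPs) that modify ribosomal RNA, and the assembly factors of both ribosomal subunits. A list of 40 such genes was examined in mouse mammary basal cells grown with or without Wnt3A. Members were taken by symbol: a gene was the mean of all array probe sets annotated to that symbol alone. This found 39 of the 40 genes, on 79 probe sets, among 18193 genes measured on the array. Mrto4 was left out because its single probe set carries several symbols.

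Ribosomes are made in the nucleolus, where RNA polymerase I transcribes one long precursor of the ribosomal RNAs. Box C/D and box H/ACA snoRNPs methylate and pseudouridylate this precursor, and a large set of assembly factors folds, cuts and exports the small and large subunits. Growing epithelial cells need many ribosomes, and Myc, a transcription factor encoded by a known target gene of Wnt signalling, is a well-known activator of these genes.

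The cells were sorted from mammary glands of virgin CD1 female mice 8 to 12 weeks old as Lin-, CD24+, CD29hi, a fraction that the submitters call enriched in mammary stem cells. They were grown as colonies in Matrigel with 50 ng/ml EGF and either purified Wnt3A at 200 ng/ml or its vehicle, a CHAPS buffer that some labels write as "vesicle". RNA came from colonies of passage 2, harvested after 6 to 7 days, and was hybridised to Affymetrix mouse arrays: Control 1, Control 2, Wnt3A 1 and Wnt3A 2. The labels name no transgene or deletion in any group and do not say how many mice were pooled or if replicate arrays stand for separate cultures. The p-values therefore measure only the spread between arrays, and this may be technical.

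Deposited values are log2 signals from which each probe set's median over the 4 arrays was removed, so a value of 0.20 means 0.20 log2 units above that probe set's own median. Levels of different genes cannot be compared on this scale. The precision of the stored numbers still places each probe set in a band of signal. The band from log2 8 to 16 held 55 of the 79 members' probe sets (69.6%, against 37.9% of all probe sets with one gene symbol), and 36 of the 39 members had a probe set there. In that band lay all probe sets of the basal keratins Krt5 and Krt14. It also held all those of the luminal keratins Krt8, Krt18 and Krt19, so the colonies were not free of these transcripts. Epcam and Cd24a, also on the luminal list, had all their probe sets there too, but the cells were sorted as CD24+. Other markers were dimmer: the luminal genes Esr1, Pgr and Foxa1 and the basal gene Oxtr had 0 probe sets in the band. It held 12 of 23 basal and 12 of 20 luminal marker probe sets. Of 6 leukocyte genes, Cd68 and Cd79a had their probe set in the upper band, while Ptprc, the pan-leukocyte antigen, was below log2 4 in both its probe sets. None of the 6 endothelial and 1 of the 15 stromal marker probe sets reached the upper band. Precision is limited by the number of arrays, 2 per group; a member's difference had a standard error of 0.14 log2 units at the median.

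The question was how colonies with Wnt3A differ from colonies with vehicle. Across the 39 genes the Wnt3A arrays averaged slightly more signal: the median difference was 0.21 log2 units, where the median over all genes was 0.00. The difference was above 0 for 33 of 39 members (84.6%, against 50.1% of all genes). Individual differences ran from -0.09 for Pes1 to 0.54 for Rrp12, with 22 members at 0.2 or more, 5 at 0.3 or more and 11 within 0.1 of no difference. Single genes did not pass the test. With limma and Benjamini-Hochberg adjustment over all genes, 0 of 18193 genes (0.0%) were called at an adjusted p under 0.05, and the smallest adjusted p among members was 0.71, for Rrp12. No member had an unadjusted p under 0.05, against 3.55% of all genes in the higher and 3.82% in the lower direction. The 95% interval of every one of the 39 members included 0, and a permutation test of 2 against 2 arrays cannot give an exact two-sided p below 0.33. RNA of whole colonies was measured, so a difference in the kinds of cells present and a difference in transcript per cell cannot be told apart.

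Both Wnt3A arrays lay above both control arrays for 19 of 39 members (48.7%, against 17.0% of all genes), and both lay below for 0 members (against 17.5%). The 19 members are Rrn3 of RNA polymerase I, the snoRNP proteins Nop56 and Nhp2, the nucleolar proteins Ncl, Gnl3 and Ddx21, the small subunit factors Heatr1, Imp4, Wdr75, Rrp12, Nop14, Noc4l, Utp20 and Wdr43, and the large subunit factors Ppan, Nip7, Ebna1bp2, Bop1 and Nop2. The other 20 members had overlapping groups. In 8 of the 19 the gap between the groups was wider than the standard deviation between arrays of one group. No such count was made over all genes, so this number has no background to be read against.

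**Figure D1:**
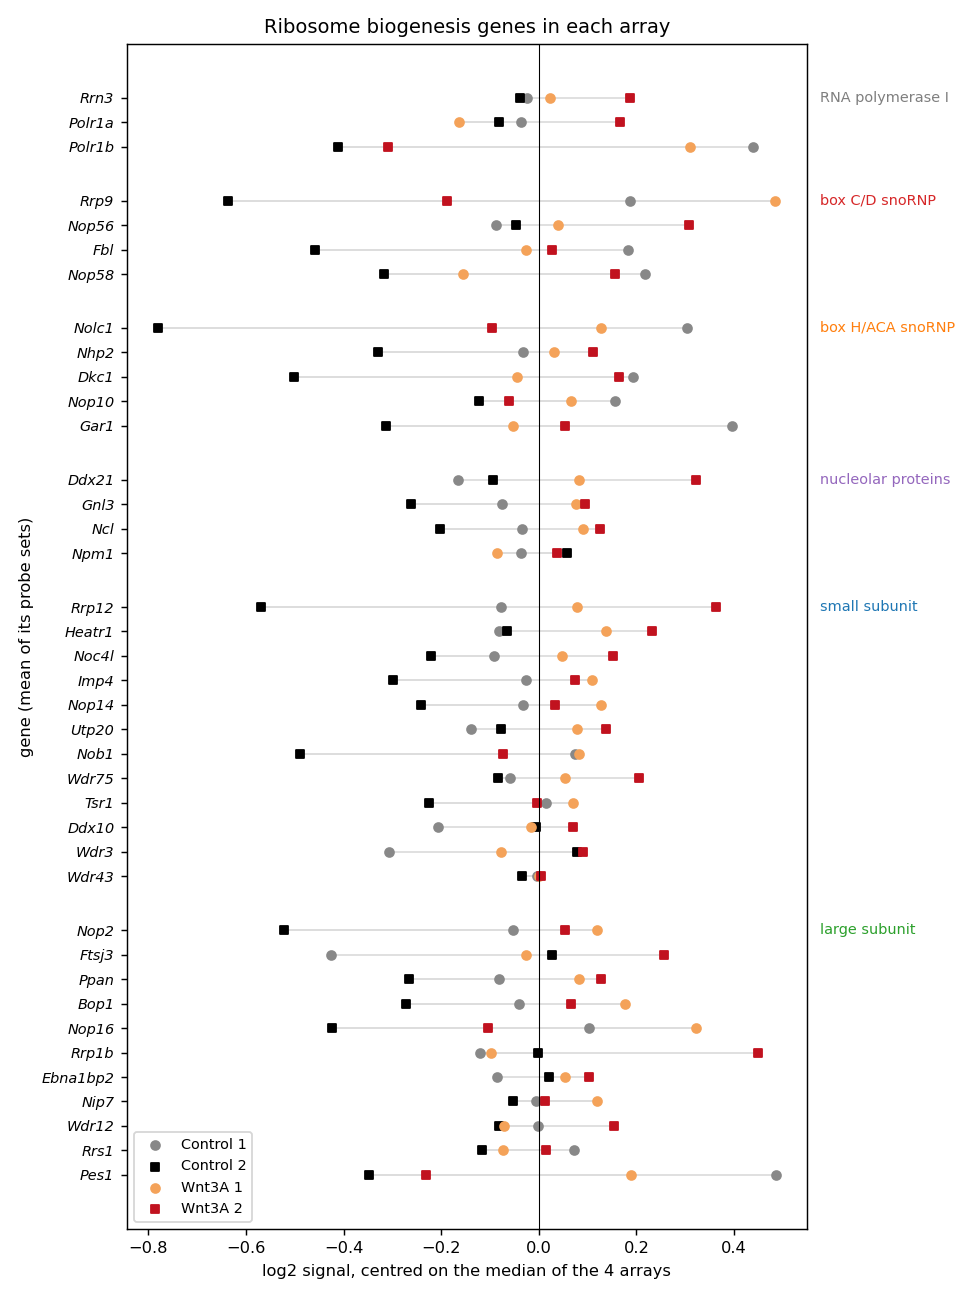
Log2 signal of each of the 39 measured genes in the 4 arrays, centred on the median of the arrays and ordered by role (points are arrays, grey for Control 1, black for Control 2, orange for Wnt3A 1 and red for Wnt3A 2; lines join the lowest and highest array; symbols can cover one another, as for Wdr43). The black squares of Control 2 are the lowest point for 28 of the 39 genes.

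One control array carried most of the difference. Control 2 was the lowest of the 4 arrays for 28 of 39 members (71.8%, against 30.6% of all genes). Control 1 was the lowest for 9 (against 19.7%), Wnt3A 1 for 2 (against 19.5%) and Wnt3A 2 for 0 (against 30.2%). Wnt3A 2 was the highest array for 20 members (51.3%, against 18.4% of all genes). Control 1 was the highest for 9 (against 30.5%), Wnt3A 1 for 9 (against 31.5%) and Control 2 for 1 (against 19.7%). The medians over members were -0.03 in Control 1, then -0.22 in Control 2, against 0.07 and 0.09 in the Wnt3A arrays. By these medians over all members, Control 1 stood closer to the Wnt3A arrays than to the other control. Within the small subunit, large subunit and nucleolar members it stood closer to Control 2. Their medians were -0.07, -0.04 and -0.06 in Control 1 and -0.15, -0.12 and -0.15 in Control 2. In the Wnt3A arrays they ran from 0.07 to 0.11. The mean of the Wnt3A arrays exceeded Control 2 by 0.30 log2 units on average over members and Control 1 by 0.06. Of the mean difference, which is the average of these 2 values, 83.5% came from Control 2, where equal shares would give 50%.

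Against Control 1 alone the direction remained for most members at a smaller size. The median difference was 0.11, and 28 of 39 members lay above 0 (71.8%, against 44.1% of all genes). Both Wnt3A arrays were above Control 1 for 23 members (against 28.3% of all genes) and both below it for 9 (against 38.6%). Against Control 2 alone the median was 0.31, and 37 of 39 members were above 0 (against 56.6% of all genes). Leaving out Wnt3A 1 gave a median of 0.21 and leaving out Wnt3A 2 gave 0.17.

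**Figure D2:**
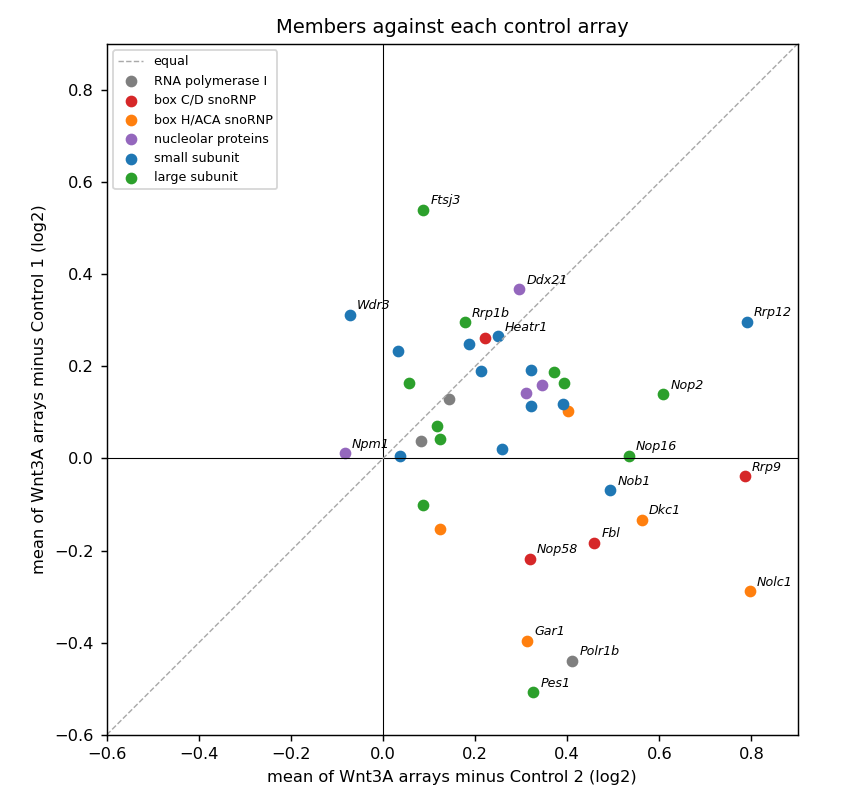
Mean of the Wnt3A arrays minus Control 1 (vertical, log2) against the same mean minus Control 2 (horizontal, log2) for the 39 genes, each point a gene coloured by role, with the dashed line where both are equal. 37 genes lie right of 0 and 28 above it, and most points sit below the dashed line. The axes share the Wnt3A arrays, so the points show no independent relation.

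RNA polymerase I is represented by its largest subunit Polr1a, the second catalytic subunit Polr1b, and Rrn3, the factor that brings the polymerase to the ribosomal DNA promoter. Rrn3 read -0.02 in Control 1, then -0.04 in Control 2, against 0.02 and 0.19 in the Wnt3A arrays, a difference of 0.14 ± 0.12 log2 units (SE, n = 2 arrays per group). Its groups were separate by 0.05, and the size came mostly from Wnt3A 2, without which the difference was 0.05. Polr1b split by array number and not by group, with 0.44 and -0.41 in the controls against 0.31 and -0.31 with Wnt3A, and its difference was -0.014 ± 0.37. Polr1a differed by 0.06 ± 0.16, and its 5 probe sets ran from -0.11 to 0.32, none of them in the upper band.

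The box C/D proteins Fbl (fibrillarin, the RNA methyltransferase), Nop56, Nop58 and the U3-specific Rrp9 were lowest in Control 2 except for Nop56. Nop56 read -0.09 and -0.05 in the controls against 0.04 and 0.31 with Wnt3A, a difference of 0.24 ± 0.14, and it kept 0.26 against Control 1 alone. Rrp9 read 0.19 and -0.64 in the controls against 0.48 and -0.19 with Wnt3A. Its difference of 0.37 ± 0.37 was the largest among the snoRNP members, but about as large as its standard error, and its groups overlapped. Fbl stood at 0.18 in Control 1 and -0.46 in Control 2, with both Wnt3A arrays between them, and Nop58 at 0.22 and -0.32. Against Control 1 alone, 1 of the 4 box C/D genes was above 0, and their median moved from 0.19 to -0.11.

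The box H/ACA set holds the pseudouridine synthase Dkc1 (dyskerin), its partners Gar1, Nhp2 and Nop10, and Nolc1, which binds both classes of snoRNP as a chaperone. As with box C/D, Control 2 stood low: all 5 were lowest in Control 2 and 4 were highest in Control 1. Nolc1 read 0.30 in Control 1 and -0.78 in Control 2, the widest gap between controls of any member, against 0.13 and -0.10 with Wnt3A, so its difference of 0.25 ± 0.38 lay well within the spread between replicates. Nhp2, the only one of the 5 with separate groups, read -0.03 and -0.33 in the controls against 0.03 and 0.11 with Wnt3A, a difference of 0.25 ± 0.15. Against Control 1 alone it differed by 0.10, and the other 4 were below 0. The median of the 5 was 0.21 with both controls and -0.15 without Control 2.

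In the abundant nucleolar proteins Control 2 gave 56.0% of the mean difference. Ddx21, an RNA helicase that links polymerase I transcription with processing, read -0.17 and -0.09 in the controls against 0.08 and 0.32 with Wnt3A. The difference was 0.33 ± 0.14, a 1.26-fold value, with an adjusted p of 0.71 in limma. Its 2 probe sets differed in size, at 0.08 and 0.58, and the first had overlapping groups. The second read -0.38 and -0.05 in the controls against 0.05 and 0.69 with Wnt3A. Gnl3 (nucleostemin, a GTPase of stem and dividing cells) read -0.08 and -0.26, then 0.08 and 0.09, and differed by 0.25 ± 0.13. Ncl (nucleolin, a binder of the precursor RNA) read -0.04 and -0.20, then 0.09 and 0.12, and differed by 0.23 ± 0.13, with all 5 probe sets above 0. Npm1 (nucleophosmin, a histone and ribosomal protein chaperone) read -0.04 and 0.06 in the controls against -0.09 and 0.04 with Wnt3A, a difference of -0.04 ± 0.12 with a 95% interval from -0.36 to 0.29.

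The small subunit factors were the largest group and had differences of one sign. All 12 were above 0 (against 50.1% of all genes) and 8 of 12 had both Wnt3A arrays above both controls (against 17.0%). The median was 0.21 with both controls, 0.25 against Control 2 alone and 0.19 against Control 1 alone, where 11 of 12 were above 0. Control 2 gave 62.6% of their mean difference, and Control 1 was the highest array for none of them.

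Rrp12, a factor of subunit export and maturation, had the largest difference of all members. It read -0.08 in Control 1, then -0.57 in Control 2, against 0.08 and 0.36 in the Wnt3A arrays, a difference of 0.54 ± 0.22 (1.46-fold; 95% interval -0.04 to 1.13; adjusted p of 0.71 in limma). It kept 0.30 against Control 1 alone. Its one probe set was below the upper band.

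Heatr1 and Utp20, large scaffold proteins of the early small subunit particle, had the tightest replicates relative to their difference in values averaged by gene. Heatr1 read -0.08 and -0.06 in the controls against 0.14 and 0.23 with Wnt3A, a difference of 0.26 ± 0.12. Its 3 probe sets, 1 of them in the upper band, were less alike. Their Wnt3A arrays read 0.06 and 0.33, then 0.06 and 0.44, then 0.29 and -0.07. In the last of these Wnt3A 2 was the lowest array. Utp20 read -0.14 and -0.08 in the controls against 0.08 and 0.14 with Wnt3A, a difference of 0.22 ± 0.12. Both were lowest in Control 1 and not in Control 2, and without Control 2 they stood at 0.27 and 0.25.

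Wdr75, Wdr43 and Wdr3 are WD-repeat proteins of the same early particle. Wdr75 read -0.06 and -0.08 in the controls against 0.05 and 0.20 with Wnt3A, a difference of 0.20 ± 0.12 with both its probe sets near that value. Wdr43 was separate only in form, since its arrays read -0.0035, -0.035, -0.00038 and 0.0035 and its probe sets, at -0.08 and 0.12, opposed each other. Wdr3 overlapped, and its difference of 0.12 ± 0.18 was -0.07 against Control 2 alone.

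Imp4, Nop14 and Noc4l bind the U3 snoRNP or help assemble the early particle. Imp4 read -0.03 and -0.30 in the controls against 0.11 and 0.07 with Wnt3A, a difference of 0.25 ± 0.14. Nop14 read -0.03 and -0.24, then 0.13 and 0.03, and differed by 0.22 ± 0.14. Noc4l, its partner, read -0.09 and -0.22, then 0.05 and 0.15, and differed by 0.26 ± 0.12 with all 4 probe sets above 0. In these 3 genes Control 2 was the lower control, and the differences against Control 1 alone were 0.12, 0.11 and 0.19.

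The remaining small subunit genes overlapped. The helicase Ddx10 differed by 0.13 ± 0.13 and the late maturation factor Tsr1 by 0.14 ± 0.14. Nob1, the nuclease that makes the last cut of small subunit RNA, differed by 0.21 ± 0.22 and by -0.07 without Control 2.

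Among large subunit factors, 9 of 11 differences were above 0 (against 50.1% of all genes) and 5 had both Wnt3A arrays above both controls (against 17.0%). The median was 0.24 with both controls, 0.18 against Control 2 alone and 0.14 against Control 1 alone. Nop2, an RNA methyltransferase of the large subunit, read -0.05 and -0.52 in the controls against 0.12 and 0.05 with Wnt3A. The difference was 0.37 ± 0.19 (1.30-fold), and it was 0.14 against Control 1 alone. Ppan read -0.08 and -0.27, then 0.08 and 0.13, and differed by 0.28 ± 0.13. This early assembly factor held 0.19 without Control 2.

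Bop1, Pes1 and Wdr12 form one complex that is required for large subunit maturation, and the differences between them were not tested. Bop1 read -0.04 and -0.27 in the controls against 0.18 and 0.07 with Wnt3A, a difference of 0.28 ± 0.14. Pes1 read 0.49 and -0.35 in the controls against 0.19 and -0.23 with Wnt3A, a difference of -0.09 ± 0.33. Its 2 probe sets had opposite signs, at -0.47 in the middle band and 0.29 in the upper band. Wdr12 differed by 0.08 ± 0.14 over 3 probe sets that ran from -0.10 to 0.19.

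Nip7 and Ebna1bp2, further assembly factors of the large subunit, had separate groups but small differences. Nip7 read -0.0054 and -0.05 in the controls against 0.12 and 0.01 with Wnt3A, a difference of 0.09 ± 0.12. Ebna1bp2 read -0.09 and 0.02, then 0.05 and 0.10, and differed by 0.11 ± 0.12, while its 3 probe sets ran from -0.18 to 0.33. For both, the difference was smaller than its standard error.

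Ftsj3, Nop16, Rrp1b and Rrs1 had overlapping groups. Ftsj3, an RNA methyltransferase, read -0.43 in Control 1, then 0.03 in Control 2, against -0.03 and 0.26 in the Wnt3A arrays. Its difference of 0.31 ± 0.21 rested on Control 1: it was 0.54 against that array alone and 0.09 against Control 2 alone. Nop16 read 0.10 and -0.42 in the controls against 0.32 and -0.10 with Wnt3A, a difference of 0.27 ± 0.25 that was 0.0064 against Control 1 alone. Rrp1b differed by 0.24 ± 0.22 through Wnt3A 2, at 0.45, and without that array the value was -0.04. Rrs1, which brings in the 5S particle, differed by -0.0069 ± 0.13.

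The probe sets of a gene did not always share a sign. Of 25 members with more than 1 probe set, 15 had all of them above 0 and 10 had both signs, and in 0 members were 2 probe sets more than 1 log2 unit apart. These counts were not made over all genes. Over probe sets, 67 of 79 were above 0 (84.8%, against 49.4% of all probe sets with one symbol), and 46 were lowest in Control 2 (58.2%, against 28.8%).

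The rest of the pathway had a smaller median. Over 129 other ribosome biogenesis genes the median difference was 0.06. Of these, 92 were above 0 (71.3%, against 50.1% of all genes). Both Wnt3A arrays lay above both controls for 37 (28.7%, against 17.0% of all genes) and below for 10 (7.8%, against 17.5%). By part, 14 of 45 small subunit genes, 13 of 47 large subunit genes, 6 of 14 polymerase I genes, 4 of 14 exosome genes and 0 of 9 snoRNP genes were separate in the higher direction. The number with an unadjusted p under 0.05 in limma was 9 in the higher direction (against 3.55% of all genes) and 0 in the lower. Without Control 2 the median of the 129 genes was 0.02 (against -0.03 over all genes), and 69 were above 0 (53.5%, against 44.1% of all genes).

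Some of the largest values among these genes were as follows. Nol10, a small subunit factor, read -0.23 and -0.29 in the controls against 0.23 and 0.42 with Wnt3A. Its difference of 0.59 ± 0.13 exceeded that of every member, with an adjusted p of 0.49 in limma. Bysl, which acts late on the small subunit, differed by 0.47 ± 0.13. Lsg1 and Eif6, which act in the last steps of large subunit maturation, differed by 0.44 ± 0.11 and 0.54 ± 0.16. Exosc7, a subunit of the RNA exosome, differed by 0.44 ± 0.18. Wdr46, another small subunit factor, differed by 0.44 ± 0.25 and rested on Control 2, at -0.70 against -0.03 in Control 1. Taf1b, a subunit of the polymerase I promoter factor, went the other way at -0.45 ± 0.19.

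Ribosomal protein genes, the products that these factors assemble, did not share the direction. Their median difference was -0.04 over 42 measured genes, of which 6 were above 0 (14.3%, against 50.1% of all genes). Both Wnt3A arrays lay below both controls for 18 of 42 (42.9%, against 17.5% of all genes) and above for 2 (4.8%, against 17.0%). The number below was 14 with quantile normalization (against 18.6% of all genes) and 14 with array medians subtracted (against 18.5%). Most sizes were small. The largest was positive, 0.39 ± 0.36 for Rpl27a, whose groups overlapped, and the largest negative value was -0.35 ± 0.12 for Rpl22. Control 2 was the highest array for 21 of the 42 (50.0%, against 19.7% of all genes), the opposite of its place for the members.

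**Figure D3:**
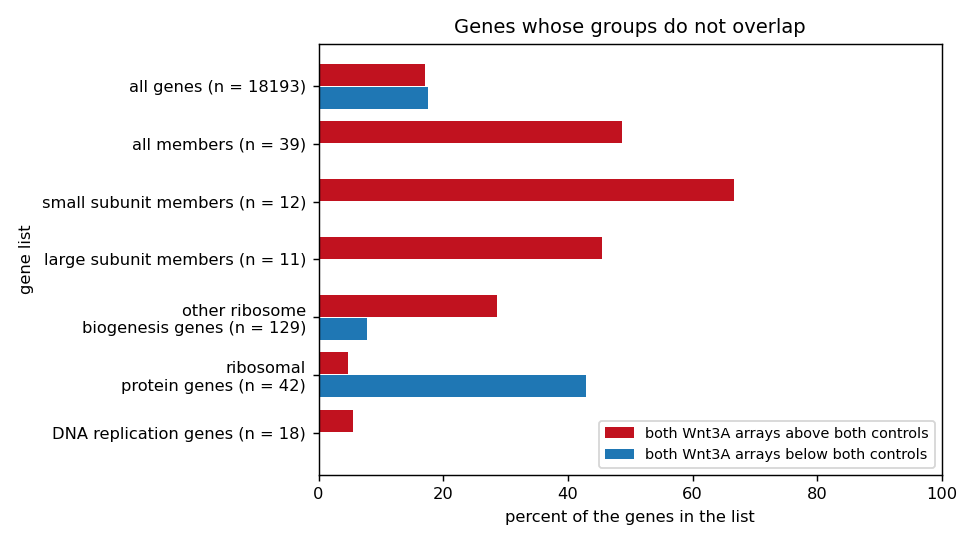
Share of genes, in percent, for which both Wnt3A arrays lie above both controls (red) or below both controls (blue), for all genes, the members, their small and large subunit factors, other ribosome biogenesis genes, ribosomal protein genes and DNA replication genes, with the number of genes in brackets. The members have 48.7% above and 0 below, and ribosomal protein genes have most of their bar below, at 42.9%.

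Myc itself was on the array. It read -0.13 and 0.10 in the controls against 0.06 and -0.06 with Wnt3A, a difference of 0.02 ± 0.14 with overlapping groups. Mycn differed by -0.03 ± 0.14. Mxd1, which encodes a partner of Max that opposes Myc, read -0.12 and -0.23 in the controls against 0.14 and 0.31 with Wnt3A, a difference of 0.40 ± 0.13. Mxd3, of the same family as Mxd1, and Mga, another partner of Max, had values of the other sign and nearly that size, at -0.39 ± 0.34 and -0.35 ± 0.34, with overlapping groups. Of 11 genes of the Myc family and its partners, 5 were above 0.

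Genes of DNA replication stood apart between the 2 controls, as the snoRNP members did. The medians of 18 replication genes were 0.32 in Control 1, then -0.28 in Control 2, against 0.08 and -0.08 in the Wnt3A arrays. Control 2 was the lowest array for 16 of them and Control 1 the highest for 15. Their median difference was 0.02 with both controls, -0.35 against Control 1 alone and 0.29 against Control 2 alone, so their sign turned with the control used. Luminal markers also stood apart in Control 2. Their medians were -0.05 and 0.19 in the controls against 0.02 and -0.14 with Wnt3A, and Control 2 was the highest array for 8 of 10. Their median difference was -0.12, and 4 of the 10 were above 0 (against 50.1% of all genes). Both Wnt3A arrays lay below both controls for 3 of the 10 (against 17.5% of all genes). These were Foxa1 at -2.34 ± 0.48, Krt19 at -1.71 ± 0.80, with groups only 0.03 apart, and Pgr at -0.60 ± 0.19. Prom1 went the other way at 0.50 ± 0.19, with both Wnt3A arrays above both controls. Basal markers, stromal markers, endothelial markers, leukocyte markers and erythroid markers had median differences of 0.18, 0.08, -0.05, 0.02 and 0.01. Within these lists the basal gene Oxtr, the oxytocin receptor, stood at -1.39 ± 0.15 and the stromal gene Pdgfra at -0.76 ± 0.27, both with separate groups. Others went the other way: 5 of 8 basal and 5 of 7 stromal markers were above 0. The basal gene Itgb1 stood at 0.49 ± 0.19 and the endothelial gene Tek at 0.39 ± 0.14, both with separate groups. Krt5 stood at 0.35 ± 0.22 with overlapping groups. None of these genes passed an adjusted p under 0.05 in limma. The part of replication genes or of cell type in the members' values was not tested.

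**Figure D4:**
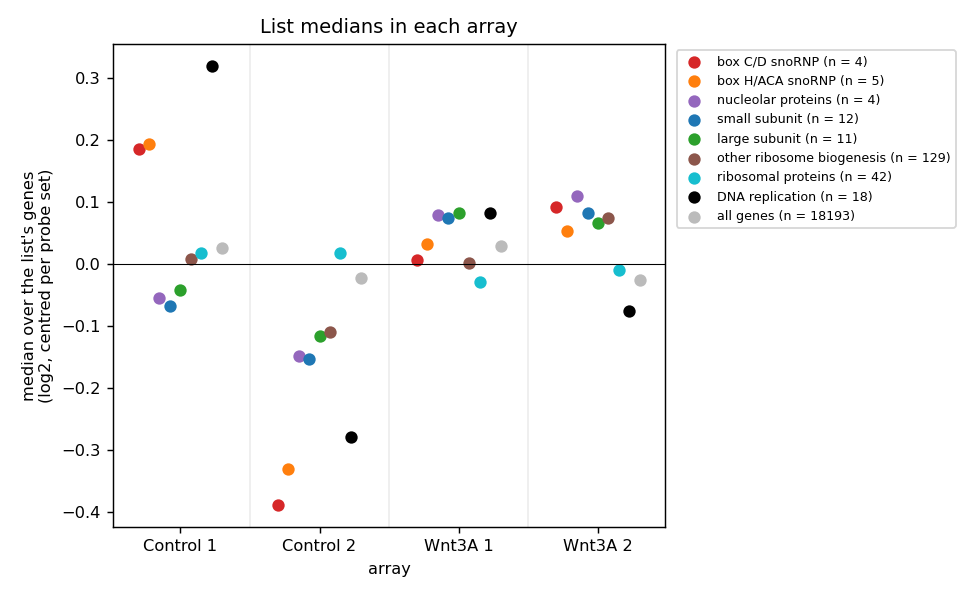
Median over the genes of each list in each of the 4 arrays (log2, centred per probe set); each point is a list in an array, with the number of genes in the key, and the 3 polymerase I members are not drawn. The snoRNP members and DNA replication genes are high in Control 1 and low in Control 2, and the small and large subunit members are below 0 in both controls and above 0 in both Wnt3A arrays.

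Promoters of the members were searched for CACGTG, the E-box core that Myc with Max, among other factors, can bind. The motif reads the same on both strands. RefSeq windows from 250 bases before to 50 after a start site (GRCm38.p6) were at hand for 34 of the 39 members, and 7 of them held it (20.6%), against 1479 of 14452 measured genes with a window (10.2%). Among members with separate groups 5 of 17 held it, and among those with overlapping groups 2 of 17. The 5 include Wdr43, which was separate only in form. No such split was made over all genes, and a link between the motif and the Wnt3A values was not tested. By role it was in 4 of 11 small subunit genes, 2 of 9 large subunit genes and 1 of 3 polymerase I genes, and in none of the 11 snoRNP and nucleolar genes with a window. Other ribosome biogenesis genes held it in 19 of 106 (17.9%), ribosomal protein genes in 4 of 37 (10.8%) and replication genes in 1 of 14.

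The 3 members with separate groups and the motif before the start site are shown with up to 40 bases on each side, from the strand of the gene and with the motif in capitals, because they are genes whose Wnt3A arrays both lay above the controls. The motif ends 115 bases before the start in Imp4 (chr1:34439668-34439753), 54 bases in Nop2 (chr6:125131783-125131868), and 209 and 42 bases in Rrn3 (chr16:13780449-13780529 and chr16:13780611-13780696), all on the plus strand of RefSeq's GRCm38.p6.
Imp4: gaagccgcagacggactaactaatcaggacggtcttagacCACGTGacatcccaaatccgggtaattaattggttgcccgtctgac
Nop2: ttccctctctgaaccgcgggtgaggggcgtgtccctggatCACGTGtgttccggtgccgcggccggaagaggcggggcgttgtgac
Rrn3, first site: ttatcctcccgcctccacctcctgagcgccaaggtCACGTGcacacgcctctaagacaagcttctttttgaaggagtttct
Rrn3, second site: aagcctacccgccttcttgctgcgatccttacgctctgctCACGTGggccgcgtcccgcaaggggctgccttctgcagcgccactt
In Pes1, Tsr1, Utp20 and Wdr43 the motif lay in the 50 bases after the start. These are matches of letters, and binding was not measured here.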

How the data were processed

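RNA was hybridised to 4 one-colour Affymetrix arrays, 2 control and 2 Wnt3A. The authors deposited log2 values from RMA, a tool named without its version in the submitters' processing notes. Nothing used here describes how each probe set was then centred on its median; the centring was read from the values (every row median was 0 within 5e-07). Of 45101 probe sets, 34945 had 1 gene symbol in the platform annotation, 932 several, 9160 none and 64 were array controls. Probe sets were averaged by gene with no filter, since centred values hold no level. The level band of a probe set, that of its dimmest array, was read from the steps of the stored numbers (log2 8 to 16 in 33.4%, 4 to 8 in 46.8%, below 4 in 19.8% of all probe sets). Groups were compared over all 18193 genes in R 4.3.3 by a two-sided moderated test (limma 3.58.1, functions lmFit and eBayes) adjusted by Benjamini-Hochberg, with 2 residual and 2.53 prior degrees of freedom. Errors are standard errors of this fit. The fit was tested on simulated data. The members and all lists were chosen with earlier results of these data known, so lists are described by counts and medians beside all genes, with no test. Values in every array were given for members with separate groups and for the 4 members with the largest absolute difference among the rest; array values of some further members and probe sets were added after they were seen. From each other list genes among its 4 largest absolute differences could be named, and always Myc and Mycn; cell type markers named for their level band were chosen after their values were seen. Alternatives were the highest band alone, the lowest band left out, quantile normalization, array medians subtracted, each array left out, the number in the labels as a block, robust eBayes, probe sets tested singly and, chosen after seeing the data, probe sets ending in _s_at or _x_at left out. Promoters came from RefSeq. Python 3.11.15, numpy 2.4.6, pandas 2.3.3 and matplotlib 3.10.9 were used.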

Additional observations from a re-analysis of the deposited data

How the results depend on the processing

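With 2 arrays per group, leaving out one leaves a lone array, whose spread is taken from the remaining group. Over the 4 arrays left out in turn, the members' median difference ran from 0.11 to 0.31, the lowest without Control 2 and the highest without Control 1, members with both Wnt3A arrays above the controls ran from 23 to 33 (of all genes, 27.7% to 39.1%), and members with both below ran from 0 to 9 (of all genes, 28.8% to 38.6%). These shares are higher for all genes too, since fewer arrays are compared. With the probe sets of the highest band only, 1 member had both Wnt3A arrays below. With the highest band only, the lowest band left out, quantile normalization, array medians subtracted, or probe sets ending in _s_at or _x_at left out, the median was 0.21 to 0.22 and the count above was 18 or 19. Over the members' single probe sets the median was 0.18. The number of genes called by limma at an adjusted p under 0.05 was 0 under each alternative, and 1340 genes had an unadjusted p under 0.05.

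The labels do not say if arrays of equal number pair, and there are only 2 such pairs. The correlation over genes of the differences between arrays 1 and 2 in each group was 0.44, and its cause was not tested. Taken by number, Wnt3A exceeded control in both pairs for 27 of 39 members (69.2%, against 29.5% of all genes). The members' median difference was 0.12 between the arrays numbered 1 and 0.32 between those numbered 2. With the replicate block the median difference was 0.21 and 0 genes were called. In this limma fit 3 of 39 members (Rrp9, Ddx21 and Ftsj3) had an unadjusted p under 0.05, against 2275 of 18193 genes. The share of members was thus not above that of all genes. The smallest adjusted p among members was 0.35 in limma.

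Signs of single members turned mainly with the array left out. The lowest and highest differences over the 4 arrays left out were -0.13 and 0.56 for Dkc1, -0.18 and 0.46 for Fbl, -0.40 and 0.31 for Gar1, -0.069 and 0.49 for Nob1, -0.29 and 0.80 for Nolc1, -0.15 and 0.12 for Nop10, -0.22 and 0.32 for Nop58, -0.10 and 0.025 for Npm1, -0.51 and 0.33 for Pes1, -0.11 and 0.23 for Polr1a, -0.44 and 0.41 for Polr1b, -0.037 and 0.51 for Rrp1b, -0.039 and 0.78 for Rrp9, -0.10 and 0.087 for Rrs1, -0.029 and 0.20 for Wdr12, and -0.072 and 0.31 for Wdr3. With the highest band only, Ddx10 was -0.12 and Pes1 0.29. Without probe sets ending in _s_at or _x_at, Rrs1 was 0.057. The cause was not tested.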
